A study of Mus musculus with 5 samples.

Results

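The cytosolic ribosomal protein genes were followed member by member in hearts of mice that had all received intravenous iron. Members were the protein-coding genes whose symbol in the GENCODE annotation of the mouse genome (build GRCm38) follows the naming pattern of the large subunit (Rpl), the stalk (Rplp) or the small subunit (Rps, with Rpsa), and 83 of the 49315 genes in the deposited tables met it. Of these, 51 belong to the large subunit and 32 to the small subunit. There were 3 hearts of mice that had been fed a diet high in fat and sucrose (HFHS) over 18 weeks, set against 2 hearts of mice kept on standard chow for as long. Both groups were given 1 dose of iron dextran, iron bound to a polymer of glucose, through a vein, and the hearts were flushed with buffered saline and taken 48 hours later. Poly-A RNA of whole heart tissue was sequenced, and no heart without iron is part of the comparison, so it measures a difference between diets after iron and not an effect of iron. The labels state neither strain, sex and age nor that each library came from its own mouse, so p-values measure the spread between these libraries.

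Ribosomal proteins, together with the ribosomal RNAs, build the large and the small subunit of the ribosome. The small subunit reads the messenger RNA and the large subunit joins amino acids and leads the new chain out through its exit tunnel. In mammals their messenger RNAs are known for a terminal oligopyrimidine (TOP) tract, a run of C and U at the very 5′ end, through which the kinase complex mTORC1 and the RNA-binding protein Larp1 control their translation and stability. In heart muscle, growth of the cells goes with more ribosomes, and one large-subunit protein, Rpl3, has a striated-muscle form, Rpl3l.

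The start of 7 member genes is shown to let the TOP tract be seen in members that are described below, 5 with a tract and 2 without. Each window holds 25 bases on either side of the start that RefSeq annotates in GRCm38.p6, written 5′ to 3′ on the gene's own strand, and capitals mark the longest run of C and T of at least 8 bases that reaches within 10 bases of that start.
Rps27 (chr3:90213624-90213673, minus strand): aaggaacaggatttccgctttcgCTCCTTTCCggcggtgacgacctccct
Rpl38 (chr11:114668555-114668604, plus strand): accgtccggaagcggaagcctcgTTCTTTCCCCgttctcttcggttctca
Rplp2 (chr7:141447626-141447675, plus strand): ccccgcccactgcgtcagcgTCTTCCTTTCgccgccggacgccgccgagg
Rpl22l1 (chr3:28805483-28805532, plus strand): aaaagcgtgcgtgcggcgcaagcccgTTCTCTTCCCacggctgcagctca
Rpl7a (chr2:26910782-26910831, plus strand): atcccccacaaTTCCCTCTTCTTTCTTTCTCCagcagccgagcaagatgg
Rpl3l (chr17:24727801-24727850, plus strand): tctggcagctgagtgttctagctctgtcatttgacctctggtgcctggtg
Rpl7l1 (chr17:46782632-46782681, minus strand): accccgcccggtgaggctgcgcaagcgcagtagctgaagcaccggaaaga

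A promoter window was found in the RefSeq table for 63 of the 83 members. A tract of this kind was present at 1 or more of a gene's annotated starts in 29 of the 63, or 46.0%, against 15.8% of the 27025 genes of that table, counted the same way. The search was made on the strand of the gene alone, since a tract acts in the RNA, and an annotated start can lie some bases away from the start used in the heart. A match is therefore a description of the letters in this window.

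Every member that could be tested was lower in HFHS hearts. Of 81 members that passed the filter on low counts, 81 fell and 0 rose at a Benjamini-Hochberg adjusted p of 0.05 in edgeR's quasi-likelihood test, against 18.7% lower and 19.4% higher among all 14221 genes tested. In all 81, each HFHS library lay below each chow library, which held for 29.4% of all genes tested. For 51 of the 81 the fitted fall was 2-fold or more, against 2.99% of all genes tested. The median member was 2.10-fold lower, a log2 fold change of -1.07 with members between -1.53 and -0.23, while the median over all genes tested was -0.01. Fold changes here are HFHS over chow, and the standard error of a member's log2 fold change lay between 0.0640 and 0.108.

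Of all counts in a library, the members together took 1.03%, 1.03% and 1.05% in the 3 HFHS hearts, against 2.29% and 2.18% in the 2 chow hearts. The group means were 1.03 ± 0.011% (SD, n = 3) in HFHS hearts and 2.24 ± 0.074% (SD, n = 2) in chow hearts, and the groups did not overlap. Among counts outside the mitochondrially encoded genes, the share averaged 1.55 ± 0.012% (SD, n = 3) in HFHS hearts and 3.24 ± 0.159% (SD, n = 2) in chow hearts. In tissue RNA of this kind, fewer cells of a type and less RNA of these genes per cell cannot be told apart. Fold changes also followed coding length over the whole table, as described below, and the part of that trend in these shares was not tested. The members' counts were also even within a group. The median coefficient of variation of a member between libraries was 3.33% in HFHS hearts and 3.66% in chow hearts, with the widest values of 16.2% for Rpl13a in HFHS hearts and 16.6% for Rpl3 in chow hearts.

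**Figure D1:**
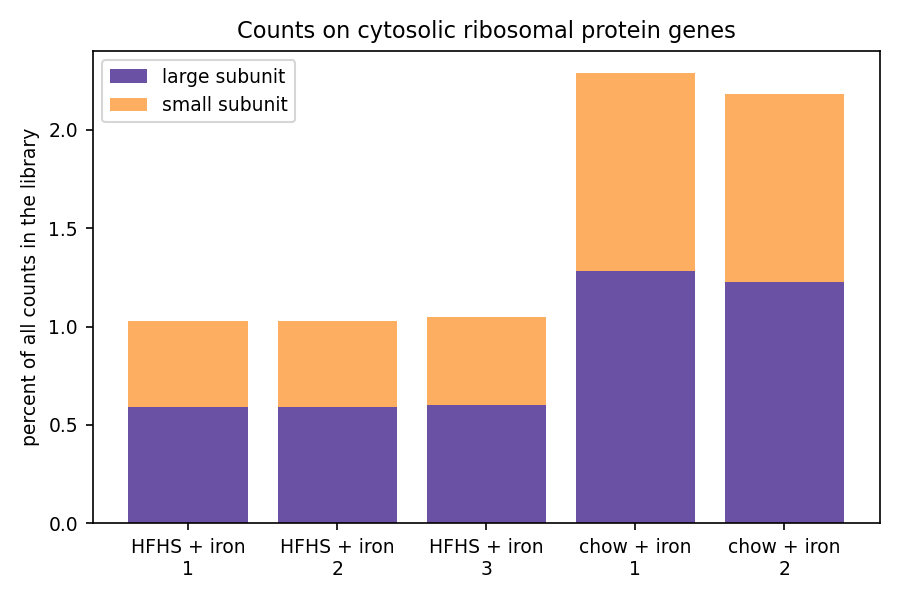
Percent of all counts in each library that fell on the 51 large-subunit genes (lower part of the bar) and the 32 small-subunit genes (upper part). The 3 HFHS libraries stand at 1.03% to 1.05% and the 2 chow libraries at 2.18% and 2.29%.

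The libraries held 14362766 to 17774735 counts, and tested members had between 245 and 15429 counts per library, so counting error was small for all of them. The share of mitochondrially encoded genes was 30.3% to 33.8%. No 2 libraries agreed within sampling noise. The chi-square of their counts per degree of freedom was 2.70 to 5.97 for pairs of HFHS libraries, 9.44 for the pair of chow libraries and 50.9 to 67.4 for pairs across groups. The labels give no batch, date or RNA integrity. Heart muscle markers were present throughout, at a summed level of 64569 to 67395 CPM (counts per 1000000 counts of the library) in HFHS hearts and 58979 to 64724 CPM in chow hearts.

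Both subunits were lower. All 49 tested large-subunit members fell, with a median log2 fold change of -1.05, and all 32 small-subunit members fell, with a median of -1.09. Among all genes tested, 18.7% were lower. The order of these medians turned with exon length and GC offsets, described below, to -0.85 for the large and -0.83 for the small subunit. It held with offsets on transcript length (-0.91 and -0.96) and coding length (-0.69 and -0.77). Median coding length was 480 bases in the large and 445.5 in the small subunit. Of other genes with 75 to 534 coding bases, 59.3% were called lower. The spread between members was wider in the large subunit, with an SD of 0.24 against 0.18 in the small subunit, and the large subunit held both members with the smallest falls. Large-subunit genes had 1.36 ± 0.0098 counts for each count on small-subunit genes in HFHS hearts (SD, n = 3) and 1.28 ± 0.0081 in chow hearts (SD, n = 2). That ratio was 1.35, 1.37 and 1.36 in the single HFHS libraries, against 1.27 and 1.29 in the chow libraries, so the groups did not overlap.

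**Figure D2:**
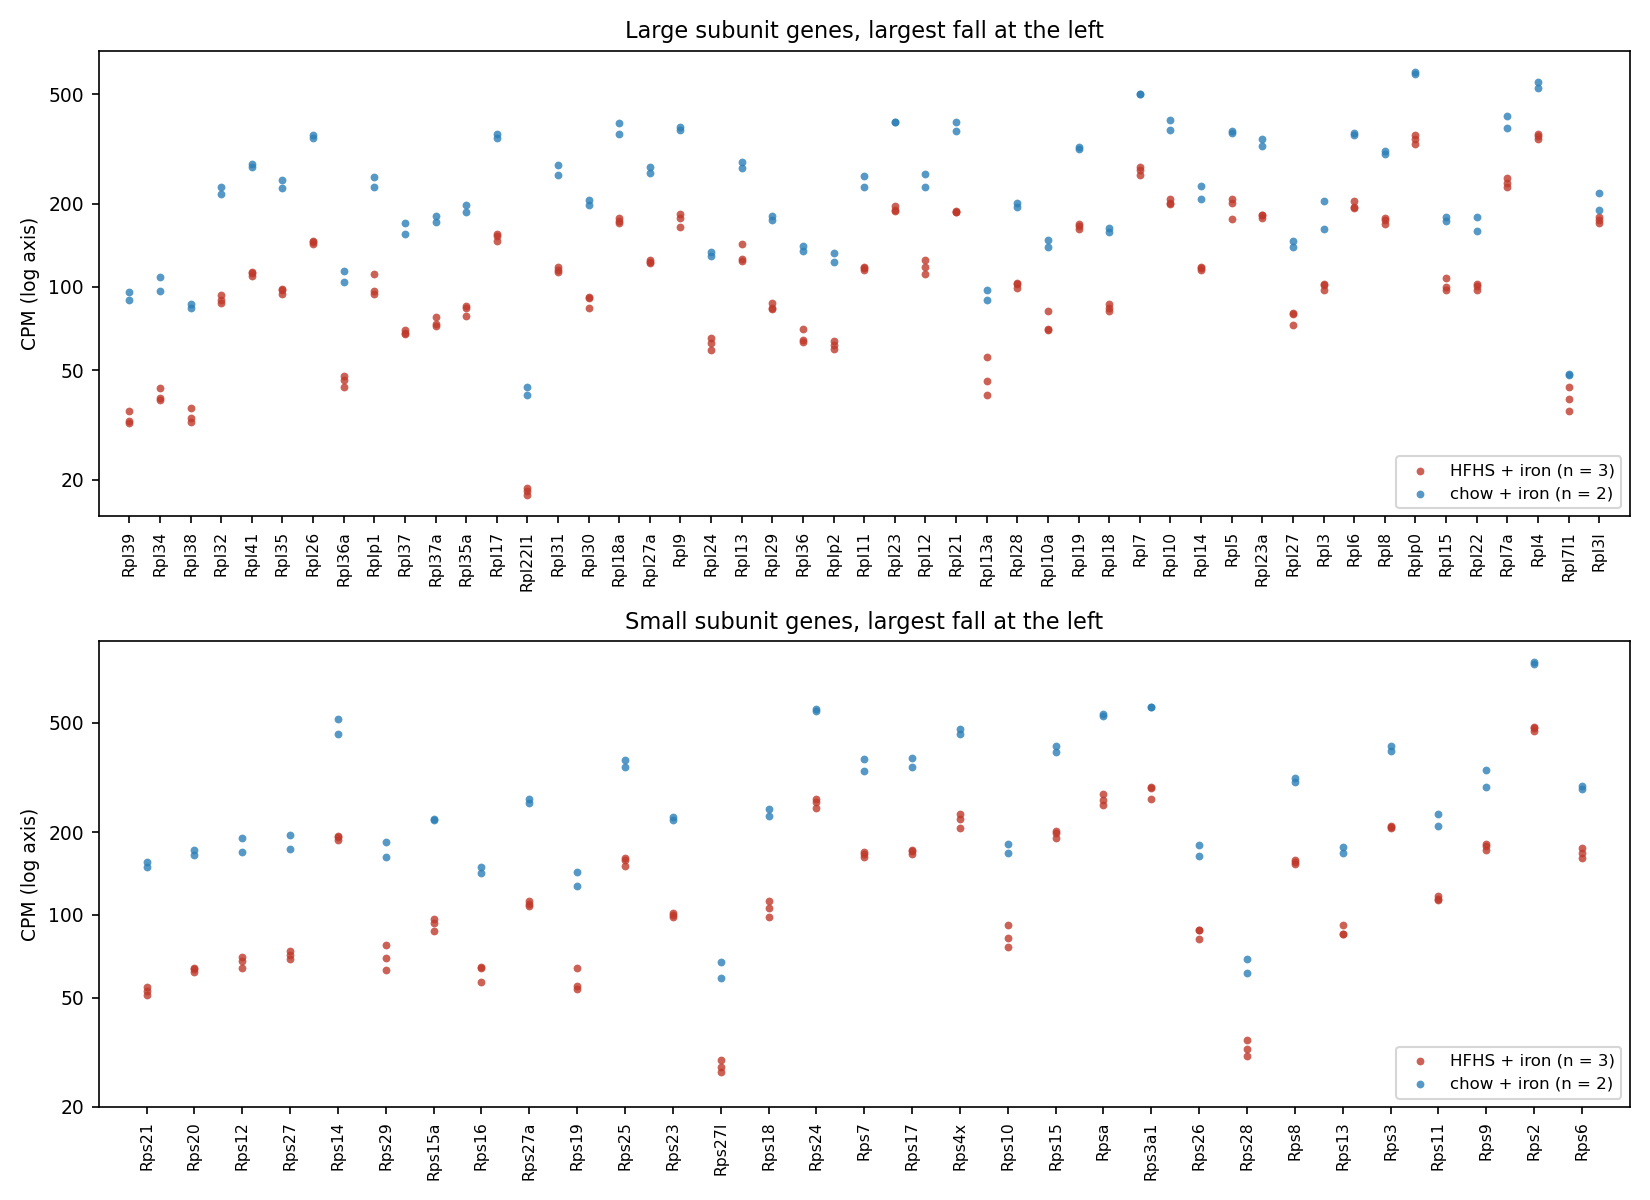
Level of tested members in CPM (log axis) in every library, with large-subunit genes above and small-subunit genes below, ordered from the largest fall at the left. In each gene drawn all 3 HFHS points lie below both chow points, which held for 29.4% of all genes tested. The gap is narrowest in Rpl3l and Rpl7l1 at the right of the upper panel.

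Of the 8 members with the largest falls, 5 belong to the small subunit. Rps21 (ENSMUSG00000039001, chromosome 2 from 180257377 to 180258445), one of the smallest proteins of that subunit, had 52.8, 51.3 and 54.7 CPM in HFHS hearts, against 155.4 and 149.8 CPM in chow hearts. No HFHS library came near a chow library, and the gene was 2.88-fold lower, with a log2 fold change of -1.53 (SE 0.0728, edgeR adjusted p = 1.54e-08). Rps20 (chromosome 4 from 3831334 to 3835665), which sits in the head of the small subunit, had 63.9, 63.5 and 62.2 CPM in HFHS hearts, against 173.0 and 165.0 CPM in chow hearts. Its 3 HFHS values differed by less than 2 CPM and its log2 fold change was -1.42. Rps12 had 64.2, 67.8 and 70.5 CPM in HFHS hearts, against 190.7 and 170.0 CPM in chow hearts, also a log2 fold change of -1.42. Rps27 (chromosome 3 from 90212522 to 90213651), a zinc-binding protein whose gene start is shown above, had 71.2, 74.0 and 68.9 CPM in HFHS hearts, against 194.8 and 174.4 CPM in chow hearts. Here the chow libraries differed more from each other than the HFHS libraries did, and the log2 fold change was -1.37. Rps14, whose loss of 1 copy in humans is known from an anaemia with a deletion on the long arm of a chromosome, had 192.5, 194.3 and 187.4 CPM in HFHS hearts, against 514.8 and 455.3 CPM in chow hearts. It was 2.53-fold lower, with an edgeR adjusted p of 3.91e-08.

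The large-subunit genes among the 8 were Rpl39, Rpl34 and Rpl38. Rpl39 (ENSMUSG00000079641, chromosome X from 37082520 to 37085402), a very short protein at the exit tunnel, had 32.6, 35.5 and 32.1 CPM in HFHS hearts, against 95.8 and 89.4 CPM in chow hearts. The groups were far apart, and it was 2.78-fold lower, with a log2 fold change of -1.47 (SE 0.0813, edgeR adjusted p = 3.91e-08). Rpl34 had 39.5, 39.0 and 43.0 CPM in HFHS hearts, against 109.1 and 96.7 CPM in chow hearts, a log2 fold change of -1.34. Rpl38 (chromosome 11 from 114668524 to 114672331), known in mice from a mutant with skeletal patterning defects, had 36.3, 32.5 and 33.4 CPM in HFHS hearts, against 83.5 and 86.5 CPM in chow hearts. The coefficient of variation was 5.80% in HFHS hearts and 2.46% in chow hearts, and it was 2.49-fold lower.

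The stalk genes were lower as well. The stalk is the arm of the large subunit that brings in the translation factors, with Rplp0 at its base and the acidic proteins Rplp1 and Rplp2 bound to it. Rplp0 (chromosome 5 from 115559467 to 115563727), often used as a reference gene in PCR, had 329.2, 342.9 and 354.2 CPM in HFHS hearts, against 601.2 and 591.8 CPM in chow hearts. Rplp1 had 94.6, 96.8 and 111.5 CPM in HFHS hearts, against 250.4 and 229.6 CPM in chow hearts. Rplp2 had 59.8, 61.4 and 63.9 CPM in HFHS hearts, against 122.9 and 132.9 CPM in chow hearts. None of the 3 genes overlapped between groups, and 29.4% of all genes tested had each HFHS library below each chow library. Their log2 fold changes were -0.80 (SE 0.0667) for Rplp0, -1.25 (SE 0.0831) for Rplp1 and -1.05 (SE 0.0751) for Rplp2, with edgeR adjusted p-values of 7.88e-07, 1.22e-07 and 2.09e-07. Rpsa, a small-subunit protein also known as a precursor of a laminin receptor, had 263.1, 251.7 and 276.5 CPM in HFHS hearts, against 530.9 and 538.9 CPM in chow hearts, a log2 fold change of -1.02.

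Per kilobase of exon, the members with the highest mean level over all libraries were Rps24, Rps15, Rps3a1, Rps2, Rplp1 and Rpl17. Rps24 (ENSMUSG00000025290, chromosome 14 from 24490681 to 24496146), one of the genes mutated in Diamond-Blackfan anaemia in humans, had a mean level of 304.1 CPM per kilobase in HFHS hearts and 660.9 in chow hearts. Rps15, whose tail reaches toward the site where codons are read, had 312.5 CPM per kilobase in HFHS hearts and 637.7 in chow hearts. Rps3a1 stood at 289.3 and Rps2, which lies by the channel where the messenger RNA enters, at 259.8 CPM per kilobase in HFHS hearts, against 583.9 for Rps3a1 and 452.8 for Rps2 in chow hearts. In HFHS hearts alone the order differed, and Rpl23a, at 213.3, and Rplp0, at 206.2, stood above Rplp1, at 202.3, and Rpl17, at 195.6 CPM per kilobase. These levels divide by all annotated exons of a gene, and genes with long rarely used exons come out low. All 6 were lower in HFHS hearts, with log2 fold changes of -1.12 for Rps24, -1.03 for Rps15, -1.01 for Rps3a1, -0.80 for Rps2, -1.25 for Rplp1 and -1.22 for Rpl17.

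The smallest falls were those of 2 paralogs. Rpl3l (ENSMUSG00000002500, chromosome 17 from 24727820 to 24736143), the form of Rpl3 made in heart and skeletal muscle, had 175.0, 169.8 and 179.8 CPM in HFHS hearts, against 190.6 and 218.5 CPM in chow hearts. The groups did not overlap, but the highest HFHS library lay close to the lower chow library, and the log2 fold change was -0.23 (SE 0.0767, edgeR adjusted p = 0.0317). That call was lost when HFHS replicate 1, HFHS replicate 2 or chow replicate 2 was left out, with adjusted p-values of 0.0931, 0.129 and 0.263, and without chow replicate 2 the log2 fold change was -0.12. It was also lost with each of the length and GC offsets described below, and its direction turned with those on exon length, to 0.051 (edgeR adjusted p = 0.650), against -0.14 (0.167) with those on transcript length. Rpl3 itself (chromosome 15 from 80077794 to 80091868), which lies close to the site where peptide bonds form, had 97.3, 101.8 and 102.6 CPM in HFHS hearts, against 204.4 and 161.5 CPM in chow hearts, a log2 fold change of -0.86 (SE 0.0912). The chow libraries were uneven for Rpl3. Per kilobase of all annotated exons, of which Rpl3l has 1643 and Rpl3 3119 bases, Rpl3l stood at 3.41, 3.17 and 3.33 times the level of Rpl3 in HFHS hearts, against 1.77 and 2.57 times in chow hearts. The coding sequences are nearly equal, with 1221 and 1209 bases, so the plain ratio of counts is close to one per coding base, and by that measure Rpl3l lay below Rpl3 in chow replicate 1.

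In counts, there were 1.80, 1.67 and 1.75 Rpl3l counts for each Rpl3 count in HFHS hearts, against 0.932 and 1.35 in chow hearts. The ratio was higher in every HFHS library than in either chow library, by 0.63 on the log2 scale. An exact two-sided permutation test over the libraries gave p = 0.2, the smallest value that 3 libraries against 2 allow, and the adjusted p over the 4 paralog pairs tested was also 0.2. The difference was 0.36 when chow replicate 1 was left out and 0.90 when chow replicate 2 was, so its size rested on which chow library was kept. Rpl3l made up 1.65%, 1.60% and 1.69% of all member counts in HFHS hearts, against 0.865% and 1.04% in chow hearts.

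Rpl7l1 (chromosome 17 from 46773907 to 46782656), a relative of Rpl7 that is related to a ribosome assembly factor of yeast, had 35.5, 43.4 and 39.3 CPM in HFHS hearts, against 48.1 and 48.5 CPM in chow hearts. It fell by 0.30 on the log2 scale (SE 0.0932, edgeR adjusted p = 0.0217), and its call was lost without HFHS replicate 1, chow replicate 1 or chow replicate 2, with adjusted p-values of 0.101, 0.0569 and 0.0588, and with each of the length and GC offsets. Rpl7 had 265.4, 254.3 and 271.0 CPM in HFHS hearts, against 501.0 and 500.2 CPM in chow hearts, and was 1.90-fold lower. The ratio of Rpl7l1 to Rpl7 counts was 0.134, 0.170 and 0.145 in HFHS hearts, against 0.0961 and 0.0970 in chow hearts, a log2 difference of 0.63 (exact permutation p = 0.2).

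In the other pairs both genes fell. Rpl22l1 had 18.7, 17.6 and 18.2 CPM in HFHS hearts, against 40.6 and 43.5 CPM in chow hearts, a log2 fold change of -1.21. Rpl22, which is needed for T cell development in mice, had 100.9, 102.6 and 97.4 CPM in HFHS hearts, against 179.2 and 159.1 CPM in chow hearts, a log2 fold change of -0.75. Here the fitted fall was larger for the paralog, and the ratio of Rpl22l1 to Rpl22 counts was 0.186, 0.171 and 0.187 in HFHS hearts, against 0.227 and 0.273 in chow hearts, a log2 difference of -0.46 (exact permutation p = 0.2). Rps27l, which is induced by p53, had 29.7, 26.8 and 27.9 CPM in HFHS hearts, against 67.1 and 58.7 CPM in chow hearts. The log2 ratio of Rps27l to Rps27 was 0.21 higher in HFHS hearts (exact permutation p = 0.2), and the single ratios were 0.418, 0.362 and 0.405 in HFHS hearts, against 0.345 and 0.337 in chow hearts. Both genes share coding stretches with other transcripts, and a split of reads between copies was not tested.

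The testis forms were next to silent. Rpl10l had 0 counts in all 5 libraries, where a count of 0 allows up to 0.169 to 0.209 CPM (3 counts of a library, counting error only). Rpl39l had 0, 1 and 3 counts in HFHS hearts, against 1 and 3 counts in chow hearts, and neither gene was tested. Their X-linked counterparts were abundant: Rpl10, which joins the large subunit late in its assembly, had 199.7, 209.0 and 201.4 CPM in HFHS hearts, against 402.3 and 369.0 CPM in chow hearts. Its log2 fold change was -0.92, while that of Rps4x, also on chromosome X, was -1.07. Rps4l is annotated as a transcribed processed pseudogene and is not a member; it had 241, 166 and 119 counts in HFHS hearts, against 363 and 273 in chow hearts, and a log2 fold change of -0.57 (edgeR adjusted p = 0.0308). Members lie on 19 chromosomes, with 14 of them on chromosome 7.

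**Figure D3:**
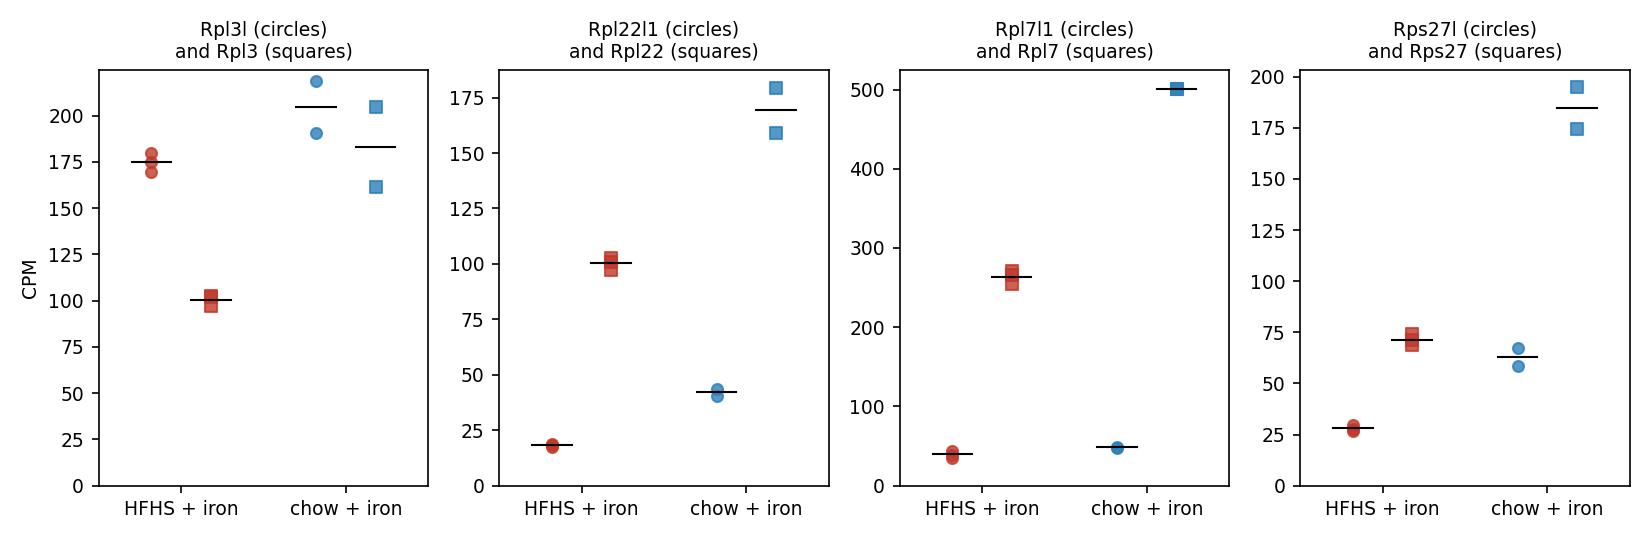
Level in CPM of 4 paralogs (circles) and their main genes (squares) in each library, with black lines at the group means; each panel starts at 0. Rpl3l and Rpl7l1 differ little between the groups beside Rpl3 and Rpl7, whereas Rpl22l1 and Rps27l fell with Rpl22 and Rps27.

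How far a member fell followed the length of its coding sequence. Across the 81 tested members, Spearman's rho of the log2 fold change with coding length was 0.73 (0.79 over 49 large-subunit and 0.61 over 32 small-subunit genes), so shorter members fell further. With exon length, which counts all annotated exons, rho was 0.27. The 10 members with under 300 coding bases had a median log2 fold change of -1.30, and the 16 members with over 700 had -0.84. Rpl41, the shortest with 75 coding bases, had 113.4, 112.1 and 109.9 CPM in HFHS hearts, against 271.8 and 279.1 CPM in chow hearts, a log2 fold change of -1.30. At the other end stood Rpl4, which lines the exit tunnel and has 1257 coding bases, with 351.9, 358.0 and 342.9 CPM in HFHS hearts, against 553.2 and 526.4 CPM in chow hearts, a log2 fold change of -0.62. These genes share the same 5 libraries, and the correlations are descriptions across genes.

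The whole table showed a trend of the same direction, with a rho of 0.53 over 12884 protein-coding genes tested. When these genes were put into 10 equal bins by coding length, the bin with the shortest coding sequences (75 to 534 bases) held 51 members. These 51 members had a median log2 fold change of -1.18, against -0.50 over 1241 other genes, of which 59.3% were called lower. Between 537 and 747 bases the median was -0.95 over 17 members and -0.29 over 1284 other genes. Between 750 and 966 bases it was -0.88 over 10 members and -0.20 over 1264 other genes. Between 1170 and 1395 bases, Rpl3, Rpl3l and Rpl4 had a median of -0.62, against -0.03 over 1296 other genes. Of the other genes in these bins, 6.77%, 6.07%, 6.65% and 8.49%, from the shortest bin to the longest, had a log2 fold change below the members' median.

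The fit was repeated with offsets that take each library's smooth trend on coding length and GC content out of the counts. The trend was fitted on genes that are not members, and this step was chosen after seeing the data. With it, 79 of the 81 members were lower, against 14.3% of all genes tested, and 0 were higher. The median log2 fold change of the members was -0.72, and rho with coding length was 0.066. Of the 8 members with the largest falls without offsets, Rps12 then had -1.01, Rps20 -0.96, Rps21 -0.96, Rps14 -0.95 and Rpl34 -0.90. Rps27 had -0.81, Rpl39 -0.78 and Rpl38 -0.67, the last a smaller fall than the members' median. Rpl41, the shortest member, had -0.36. Rpl3l, with -0.16 and an edgeR adjusted p of 0.108, and Rpl7l1, with -0.10 and 0.437, were no longer called. With a trend on exon length and GC content in its place, 79 of the 81 were lower, against 16.5% of all genes, with a median of -0.84. With one on transcript length and GC content, 79 were again lower, against 18.1%, with a median of -0.94.

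**Figure D4:**
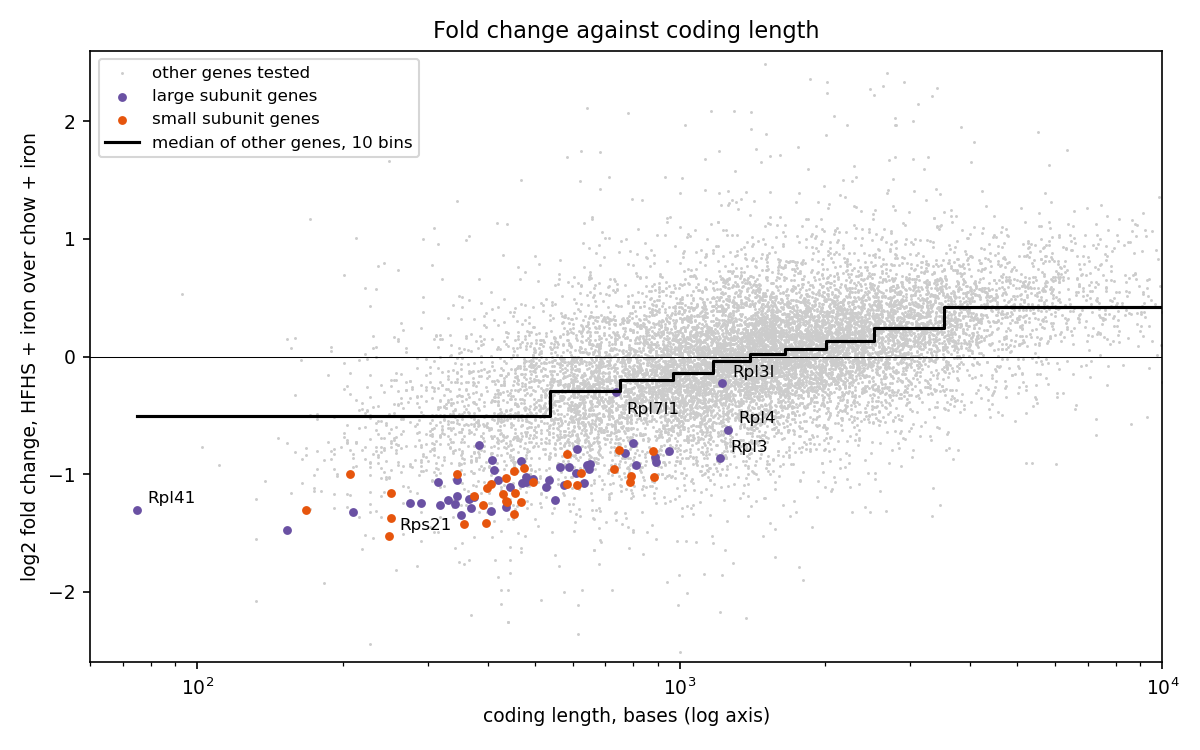
Log2 fold change of each protein-coding gene tested (HFHS over chow) against its coding length in bases (log axis), with the large-subunit and small-subunit genes in colour and the median of the other genes in 10 equal bins as a black line. The members lie below the median of other genes of their length (Rpl7l1 almost on it), and their fall shrinks from the short to the long genes. The few genes beyond the ends of the axes are not drawn.

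Many members have near-identical copies in the genome, mostly processed pseudogenes, and no source used here says how reads that match several places were counted. Over the tested members, the median share of 50-base stretches of the coding sequence that also occur in a transcript of another gene was 91.3%. The share was under 10% for 4 members, and all 4 were lower, against 18.7% of all genes tested. Among them, Rps3, which lies by the messenger RNA entry channel and shares 8.09% of its stretches, had 208.6, 207.4 and 210.4 CPM in HFHS hearts, against 413.3 and 394.4 CPM in chow hearts, a log2 fold change of -0.95. Rpl8, with 8.73%, had -0.82, and Rpl3l, with 0%, had -0.23. The call of Rpl3l was lost with some libraries left out and with each of the length and GC offsets, as given above. The 44 members with a share of at least 90% had a median of -1.06, and rho of the log2 fold change with the share was -0.09 over the 81 members.

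The pseudogenes that share such stretches took few of the counts. There were 899 of them in the tables, and together they had 1596, 1406 and 1411 counts in HFHS hearts, against 3339 and 3529 counts in chow hearts. That came to 0.938%, 0.954% and 0.894% of the members' counts in HFHS hearts, against 0.821% and 0.933% in chow hearts. Of the 46 that could be tested, 15 were lower and 2 higher, against 18.7% lower and 19.4% higher among all genes tested. Reads of a member that were dropped or placed elsewhere cannot be seen in these tables.

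Ribosome components that the naming pattern leaves out fell as well. Fau, whose product carries the small-subunit protein Rps30 behind a ubiquitin-like part, had 40.5, 48.0 and 47.0 CPM in HFHS hearts, against 116.8 and 108.7 CPM in chow hearts, a log2 fold change of -1.32 (edgeR adjusted p = 1.12e-07). Rack1, a scaffold protein on the small subunit, had -0.90, and Rpl36al, a copy of Rpl36a outside the pattern, had -0.75. All 4 genes on this list were lower, against 18.7% of all genes tested. None of them overlapped between groups, and 29.4% of all genes tested had each HFHS library below each chow library. Fau has 399 and Rpl36al 318 coding bases, and 59.3% of other genes with 75 to 534 coding bases were called lower.

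Other messenger RNAs known to carry a TOP tract, mostly translation factors, were lower in part. Of 16 on the list, 10 fell, 0 rose and 6 did not pass, against 18.7% lower among all genes tested, with a median log2 fold change of -0.45 and a median coding length of 1266 bases, against 456 bases for the members. Tpt1, a growth-related protein with a classical TOP tract, had 714.5, 694.1 and 723.0 CPM in HFHS hearts, against 1555 and 1647 CPM in chow hearts, a log2 fold change of -1.17. The elongation factor genes Eef1a1, with -0.95, Eef1b2, with -0.87, and Eef1d, with -0.52, were lower too. Eef2, also an elongation factor gene on the list, had -0.09 (edgeR adjusted p = 0.320) and did not pass. Among the members themselves, the 29 with a tract at an annotated start had a median log2 fold change of -1.11, and the 32 tested members with a window but no such tract had -1.04. Rpl7a, whose 21-base tract is the longest of those shown, had 247.5, 230.8 and 237.3 CPM in HFHS hearts, against 417.1 and 376.1 CPM in chow hearts, and its log2 fold change of -0.73 is one of the smaller ones. Rpl3l and Rpl7l1, whose windows are shown above, are among those without a tract. So is Rps21, the member with the largest fall, at -1.53.

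Genes for making ribosomes held both higher and lower ones. Of 45 ribosome biogenesis genes tested, 12 fell, 8 rose and 25 did not pass, with a median log2 fold change of -0.03. Among all genes tested 18.7% were lower and 19.4% higher, and these counts are read as no result about the list. Polr1a, the largest subunit of RNA polymerase I, which copies the ribosomal RNA genes, had 69.7, 67.8 and 59.6 CPM in HFHS hearts, against 31.9 and 36 CPM in chow hearts, a log2 fold change of 0.95. Ddx21, a helicase of ribosomal RNA processing, had 0.52. In contrast, Nop10, a small protein of the particles that modify ribosomal RNA, had -0.79, and Polr1d, a small subunit shared by RNA polymerases I and III, had -0.57. The coding lengths ran the same way, with 5151 bases for Polr1a and 2553 for Ddx21, and 192 for Nop10 and 399 for Polr1d.

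Of 16 genes of mTORC1 and the control of translation, 10 rose, 1 fell and 5 did not pass, with a median log2 fold change of 0.44. Among all genes tested 19.4% were higher and 18.7% lower. The 1 that fell was Rheb, with -0.30 (edgeR adjusted p = 0.00736). Tsc1, with 0.78, Tsc2, with 0.53, and Deptor, with 0.54, were among the 10. The list holds genes that act for and against mTORC1, so its counts give no direction of the pathway. Mtor, the kinase of the complex, had 68.1, 66.0 and 65.8 CPM in HFHS hearts, against 35.4 and 40.0 CPM in chow hearts, a log2 fold change of 0.82. Rptor, its scaffold, had 0.86, and Larp1, which binds TOP messenger RNAs, had 97.3, 96.5 and 100.3 CPM in HFHS hearts, against 56.9 and 61.4 CPM in chow hearts, a log2 fold change of 0.73. Mtor and Rptor have 7647 and 4005 coding bases, and the bin of the longest protein-coding genes, from 3522 bases up, had a median of 0.42. Larp1 has 3216, and the bin below, from 2529 to 3519 bases, had a median of 0.24. Eif4ebp2, which blocks the cap-binding protein until mTORC1 phosphorylates it, has 360 coding bases and had 22.2, 20.9 and 22.7 CPM in HFHS hearts, against 12.5 and 9.67 CPM in chow hearts, a log2 fold change of 0.99.

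**Figure D5:**
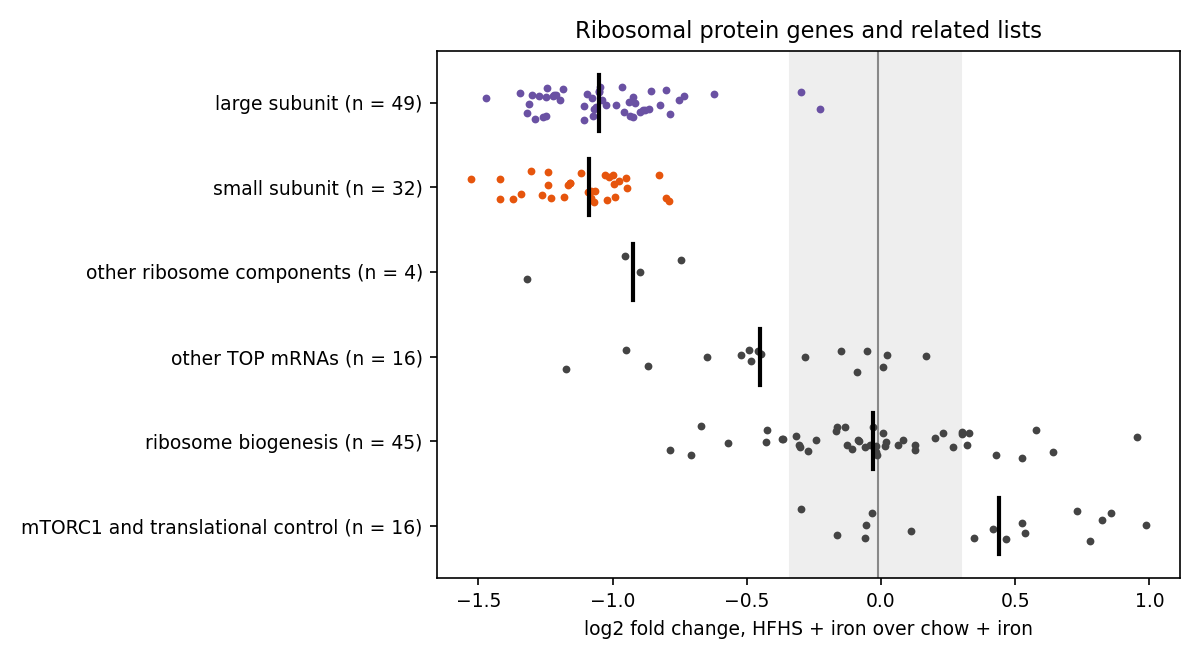
Log2 fold changes (HFHS over chow) of the tested genes of each list, 1 point a gene, with a black bar at each list's median; the grey band spans the middle quartiles of all genes tested and the grey line their median of -0.01. The medians are -1.05 for the large subunit, -1.09 for the small subunit, -0.45 for other TOP messenger RNAs, -0.03 for ribosome biogenesis and 0.44 for mTORC1 and translational control.

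Markers of several other cell types were lower in the same hearts. The counts below stand beside 18.7% lower and 19.4% higher among all genes tested. All 9 macrophage markers fell, and their summed level was 178.7 to 210.2 CPM in HFHS hearts and 463.6 to 537.9 CPM in chow hearts. All 5 erythroid markers fell, with 250.2 to 523.7 CPM in HFHS hearts and 1484 to 1699 CPM in chow hearts. All 8 fibroblast markers fell, with 844.1 to 908.8 CPM in HFHS hearts and 1344 to 1470 CPM in chow hearts. Of 8 endothelial markers, 6 fell and 0 rose, with 829.2 to 857.7 CPM in HFHS hearts and 1096 to 1126 CPM in chow hearts. Of 7 pericyte and smooth muscle markers, 3 fell and 1 rose, with 1243 to 1307 CPM in HFHS hearts and 1423 to 1429 CPM in chow hearts. Among 10 heart muscle markers, 4 rose and 4 fell. Ttn (log2 fold change 0.89), Myh6 (0.81), Ryr2 (0.80) and Mybpc3 (0.77) were higher. Tnni3 (-0.60), Myl2 (-0.51), Myl3 (-0.44) and Tnnt2 (-0.19) were lower, so markers of this 1 cell type went both ways. Cd79b, the only 1 of 5 lymphocyte markers tested, and the 2 tested of 4 neutrophil markers fell. Their counts were high enough for the filter on low counts in the chow libraries, so these falls are read as no result. Each of these lists summed to at most 4.05 CPM in any library, with Ly6g at 0 in all of them. All 3 tested of 4 mesothelial markers, those of the heart's outer lining, rose. This list summed to 4.11 to 5.38 CPM in HFHS hearts and 0 to 0.692 CPM in chow hearts. Msln and Lrrn4 were at 0 in both chow libraries. These 3 passed the filter on low counts through the HFHS libraries, where they are high, so their rise is read as no result. Fat cell markers summed to at most 0.464 CPM and skeletal muscle markers to at most 2.51 CPM in any library, with Myh2, Myh4 and Pvalb at 0 in all. The part of these cell types in the lower counts of the ribosomal protein genes was not tested. The part of coding length in the marker calls was not tested either.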

How the data were processed

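The authors deposited raw counts for each gene in a table for each library, with exon coordinates and an exon length, per the file headers. The build GRCm38, STAR 2.5.2b, Trimmomatic 0.36 and featureCounts (Subread 1.5.2) are named per the submitters' processing notes. No source used here gives the annotation release, the strand setting or the treatment of multi-mapping reads, so genes with near-identical copies, overlapping or antisense partners carry that uncertainty. Symbols and coding lengths (stop codon left out) came from GENCODE M21, which held 49056 of the 49315 gene IDs. Of the 83 members, 69 had the same start and end there as in the tables, and coordinates given are those of the tables. Promoter windows came from RefSeq (GRCm38.p6).

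Counts were tested over the whole table with edgeR 4.0.16 (R 4.3.3) by its quasi-likelihood F test on diet, after filterByExpr and TMM factors, with Benjamini-Hochberg adjustment and a threshold of 0.05, and p-values were adjusted over all 14221 genes tested. CPM use TMM-adjusted library sizes, while shares of counts and summed markers use total counts. Standard errors were approximated from each gene's coefficient and its F value. On simulated data of this design the test made more false calls than its threshold states and missed part of the smaller changes, so calls near the threshold are less certain. Paralog ratios were tested with an exact permutation test over libraries. Intervals and floors cover counting error only. Length and GC offsets used mgcv 1.9.3; DESeq2 1.42.0 and limma 3.58.1 served as alternatives.

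The members and gene lists were chosen with earlier results of these data known. Members named were the 6 with the highest level per exon length, the 8 called members with the largest fall (none rose), the paralog pairs, the stalk genes with Rpsa, and untested members. Of other genes, the ribosome components outside the pattern and the 4 of each other list with the smallest p were named. Rheb, Tsc1, Tsc2, Deptor and Eef2 were named after their values were seen. The called heart muscle markers were named after their values were seen. Rpl4, Rpl41, Rpl8, Rpl13a, Rpl23a and Rps3 were named after their values were seen, for their length, their level, their spread or their few shared stretches, and Rpl7a for its long tract. The values of 2 genes that enter the counts are not reported here.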

Additional observations from a re-analysis of the deposited data

How the results depend on the processing

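Of the 81 tested members, 79 to 81 were lower and 0 higher under each of the alternatives run: RLE size factors, total counts without TMM factors, TMM factors from genes that are not members, DESeq2, limma-voom, other filters on low counts, no mitochondrially encoded genes, an adjusted p of 0.01, the length and GC offsets, and each library left out. The members' median log2 fold change of -1.07 became -1.16 with total counts and no TMM factors, -0.84 with exon length and GC offsets, -0.94 with transcript length and GC offsets and -0.72 with coding length and GC offsets fitted without the members, a step added after seeing the data. It stayed between -1.11 and -1.04 when 1 library was left out, with 79 to 81 members lower and 0 higher, and all genes called then numbered 4248 to 4929, against 5417. Total counts without TMM factors moved the median of all genes tested to -0.11 and gave 2053 higher and 3429 lower genes, against 2756 higher and 2661 lower with TMM. With the replicate number as a block, 81 members were lower with a median of -1.08, 5332 genes were called and no member's call changed. In that fit 1 HFHS library had no same-numbered chow library, so the diet effect came from the other libraries. The deviations of same-numbered libraries correlated at 0.0348 and 0.0258. These values cannot tell whether same-numbered libraries were processed together, since the deviations of 2 chow libraries from their mean mirror each other. With a library left out, the log2 ratio difference ran from 0.36 to 0.90 for Rpl3l to Rpl3, from -0.59 to -0.32 for Rpl22l1 to Rpl22, from 0.53 to 0.70 for Rpl7l1 to Rpl7 and from 0.17 to 0.27 for Rps27l to Rps27. Over 26 named members with a test and 17 alternatives, 430 of 442 values kept direction and call. The 12 others belonged to Rpl3l and Rpl7l1, and 1 of them changed sign: Rpl3l had a log2 fold change of 0.051 (edgeR adjusted p = 0.650) with exon length and GC offsets, against -0.23. With stretches of 100 bases in place of 50, 88.0% of the members shared one with another gene, against 96.4%. Depth limited 2 members, Rpl10l and Rpl39l.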
